A study of Mus musculus with 24 samples.

Results

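Blood from mice labelled as Gadd45a knockout was compared with blood from mice labelled as wild type, both drawn 24 h after a 7 Gy exposure to x-rays, across all genes on the array. The arrays were chosen by their titles: 9 irradiated arrays of the knockout label and 5 irradiated arrays of the wild-type label, 14 of the 24 arrays of the series, with the other 10 from unirradiated mice of both labels. The series concerns Gadd45a, described in its title as a suppressor of autoimmunity, in gene expression assays of radiation exposure.

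Wild-type (WT) samples carry the genotype label Gadd45aWT and knockout (KO-labelled) samples the label Gadd45aKO. All were male mice of the strain C57BL/6J, with no age given. The genotype label does not say which part of Gadd45a was removed, or in which cells. Controls at 0 Gy, 5 arrays of each label, were collected in the same way. Whole blood was drawn by cardiac puncture into a stabilising lysis solution, so every leukocyte, red cell precursor and platelet in the draw contributed RNA, and no cell type was selected. The series calls the samples independent experiments and names no animal, so the p-values below measure the spread between these arrays, which may be partly technical.

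Gadd45a is a small stress-induced nuclear protein that belongs to a family of 3 genes with Gadd45b and Gadd45g. It is a classical target of the transcription factor p53 after DNA damage, binds the cell cycle proteins p21 and PCNA, and feeds into the p38 and JNK kinase cascades. In T cells it restrains an alternative route of p38 activation, and mice that lack it are known for T cell hyperactivity and autoimmune disease. Irradiation of the whole body kills blood lymphocytes within a day, B cells most of all, and stops output from the bone marrow, so blood at 24 h holds the surviving mature cells.

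The arrays of a label were not equally independent. For each pair of arrays of one group, the spread of the differences between their probes was divided by the spread of repeat spots within an array, so that a ratio near 1 is what a second hybridisation of the same sample could give. WT replicates 1 and 2 had a ratio of 1.24, and WT replicates 3, 4 and 5 had ratios of 1.43 to 2.12 with each other. Between these 2 sets the ratios were 4.01 to 4.50. Among the KO-labelled arrays, replicates 1, 2, 3, 4 and 8 lay within 1.14 to 2.16 of each other, replicates 5 and 7 had a ratio of 1.83, and the other 25 pairs stood at 2.86 to 7.04. The irradiated WT group therefore consisted of 2 tight sets. Whether arrays within a set came from the same animals was not tested. The comparisons below are over all 14 arrays. Where list counts change they are also given with near-identical arrays (ratio under 1.5) averaged to 1 unit each, which leaves 3 WT and 6 KO-labelled units, and without WT replicates 3 to 5, with the named genes that lose their call. The setting without WT replicates 3 to 5 leaves WT replicates 1 and 2, which are near-identical (ratio 1.24) and were not averaged there. Its p-values therefore take near-identical arrays as separate samples, so a call that passes there, here and below, is a weak check.

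**Figure D1:**
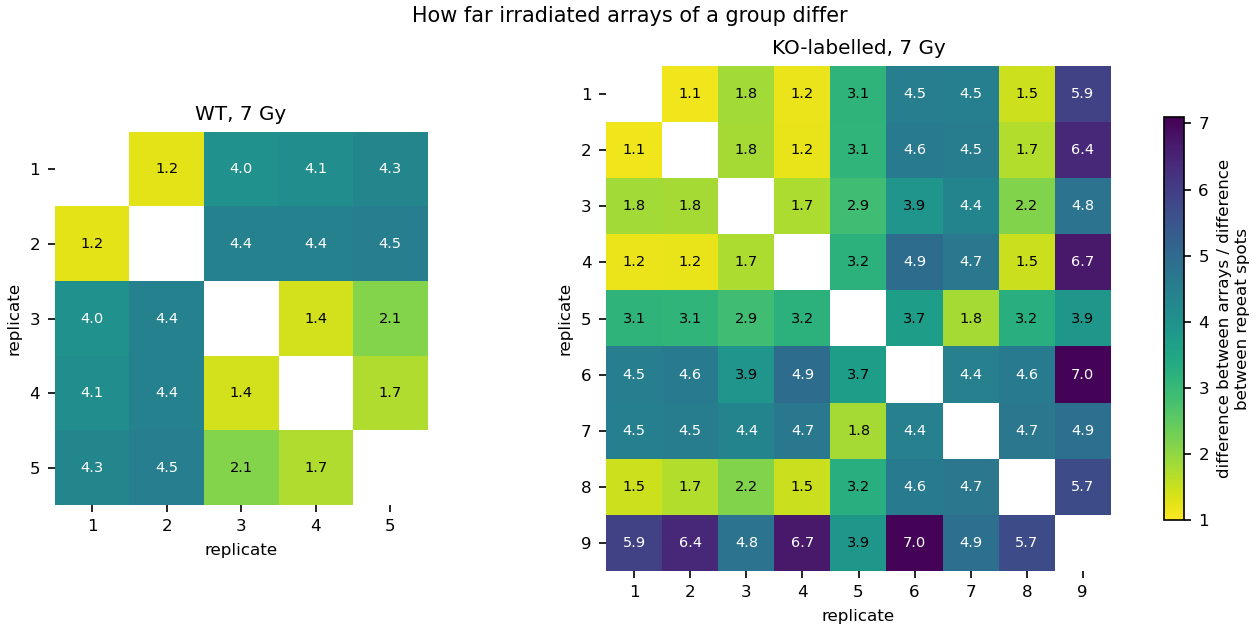
Spread of the difference between each pair of irradiated arrays of a label, as a ratio to the spread of repeat spots within an array (no unit). WT replicates 1 and 2 form one block and WT replicates 3 to 5 another, with ratios of 4.01 to 4.50 between them, while KO-labelled replicates 1 to 4 and 8 form the largest block of low ratios.

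The WT sets differed most in liver transcripts. Over 36 genes that hepatocytes express, such as Alb for serum albumin and Cyp3a11 for a drug-metabolising cytochrome, the mean level was -3.11 and -3.09 on WT replicates 1 and 2, and 0.73, 0.76 and 0.72 on WT replicates 3, 4 and 5. Levels here and below are log2 intensities from which each array's own 75th percentile, over probes well above background on all 24 arrays, was subtracted. KO-labelled arrays ran from -5.11 to -3.06 with a median of -3.31, so WT replicates 1 and 2 lay inside the range of the KO-labelled arrays and WT replicates 3 to 5 far above it. Unirradiated WT arrays stood lower still, between -7.10 and -6.68, while unirradiated KO-labelled samples ran from -7.30 to -4.01. Alb stood at -2.75 and -1.74 on unirradiated KO-labelled replicates 2 and 5 and at -7.73 to -7.47 on the others. Of 37 hepatocyte genes with a probe, 32 to 37 were well above background on each irradiated WT array and 24 to 36 on each KO-labelled array. Of 8 lung markers, 5 were below background on all 14 arrays and at most 2 were well above it on any array. Of 13 heart and skeletal muscle markers, 2 to 6 were well above background on each WT array and 1 to 10 on each KO-labelled array. The mean over the 5 muscle genes tested was -6.32 to -5.66 on WT arrays and -7.18 to -3.99 on KO-labelled arrays, highest on KO-labelled replicates 5 and 7. Blood markers were present: Ptprc, Hbb-b1, S100a8 and Cd3e were well above background on 14 of 14 arrays, and the B cell gene Cd79a on 5 of 5 WT and 8 of 9 KO-labelled arrays.

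Depth was judged from signal over background. Between 39.7% and 46.4% of spots were well above background on the irradiated WT arrays and between 25.9% and 51.4% on the KO-labelled arrays (means 42.6% ± 2.55 and 38.4% ± 8.64, SD, n = 5 and 9). The difference was within the spread between arrays (exact permutation test over 2002 splits, two-sided, p = 0.307). WT replicates 1 to 5 share slides 1 to 5 with KO-labelled replicates 1 to 5, while KO-labelled replicates 6 to 9 lie on slide 6 with no WT array.

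Across all genes, KO-labelled blood differed from WT blood after 7 Gy mainly by lower levels in the main scaling. Of 15784 genes tested, 700 (4.43%) were higher and 2884 (18.3%) were lower in KO-labelled blood at an adjusted p under 0.05 (limma, Benjamini-Hochberg). Among these, 270 higher and 1283 lower genes differed by more than 1 on the log2 scale. Neutrophil, NK cell, T cell, interferon and liver lists held many lower genes and few or no higher ones, and red cell and cell division lists the reverse. The 9 KO-labelled arrays all lay above the 5 WT arrays for 128 genes (0.811%) and all below for 841 genes (5.33%).

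The balance of higher and lower calls depended on the scaling. Calls that were higher made up 19.5% of all calls in the main scaling, 48.1% when the percentile was taken over all probes, 35.5% under median scaling, 33.9% under quantile normalization, 41.7% after normexp background correction and 21.8% in the authors' value table. The median difference over all genes was -0.12 in the main scaling and 0.10 with the percentile over all probes, and differences below can be read against -0.12. With near-identical arrays averaged, 124 genes (0.786%) were higher and 686 (4.35%) lower. Without WT replicates 3 to 5, 110 (0.697%) were higher and 1053 (6.67%) lower. In 388 genes the call held over all 14 arrays, with near-identical arrays averaged, without WT replicates 3 to 5 and without WT replicates 1 and 2, 45 of them higher and 343 lower. With all arrays of a ratio under 2.5 averaged, which leaves 2 WT and 4 KO-labelled units, limma called only Clic5, and 1063 genes had an unadjusted p under 0.05.

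**Figure D2:**
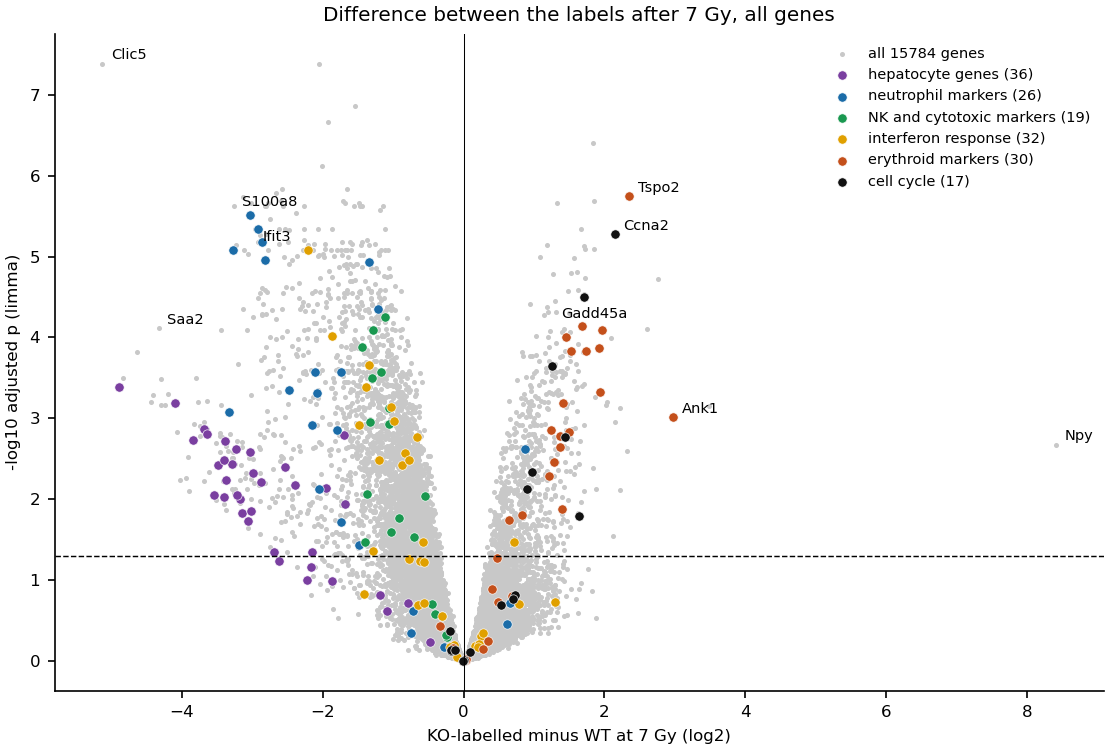
Difference between KO-labelled and WT blood after 7 Gy (log2) against -log10 of the adjusted p from limma for all 15784 genes, with 6 gene lists in colour and the dashed line at 0.05. Hepatocyte, neutrophil and NK genes lie to the left, erythroid and cell cycle genes to the right, and Clic5 and Npy stand at the edges.

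The targeted gene was not lower in the blood labelled knockout. Gadd45a stood at -1.09, -0.80, -1.63, -1.42 and -1.09 on WT replicates 1 to 5. On KO-labelled replicates 2 to 9 in order it stood at 0.24, -0.42, 0.22, 0.31, 0.12, 0.21, -0.05 and -0.69, and on replicate 1 at 0.0039. Every KO-labelled array was therefore above every WT array. Gadd45a differed by 1.20 ± 0.17 on the log2 scale (SE), a 2.30-fold higher level in KO-labelled blood (limma adjusted p = 4.84e-05, and 0.0223 with near-identical arrays averaged). The probe lies at chr6:66985376-66985435 of mm9, and its position relative to the deleted part is unknown here, so it does not check the label. At 0 Gy the labels did not separate: WT arrays lay between 0.28 and 0.86, KO-labelled arrays between 0.28 and 0.67, and the difference was -0.14 ± 0.21 (adjusted p = 0.855). The difference between the doses was 1.35 (adjusted p = 0.00379 for the interaction), so the label KO-labelled is kept throughout and every direction below rests on it.

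The other family members did not move with Gadd45a. Gadd45b, which is induced by inflammatory signals, stood at -3.44, -3.83, -2.13, -2.17 and -2.73 in WT blood and at -4.91 to -3.64 with a median of -4.50 in KO-labelled blood. The groups overlapped, because WT replicate 2 lay below the highest KO-labelled array. Gadd45b was 2.77-fold lower (difference -1.47 ± 0.26, adjusted p = 0.000338), and without WT replicates 3 to 5 the difference was -0.70 with an adjusted p of 0.152. Gadd45g differed by 0.20 ± 0.22 (adjusted p = 0.559), with WT arrays at -2.50, -2.44, -1.89, -1.80 and -1.80 and KO-labelled arrays at -2.39 to -1.62.

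Most classical p53 targets did not pass the test, and those that passed were lower. Cdkn1a, which encodes the cyclin-dependent kinase inhibitor p21, stood at -1.62, -1.66, -1.76, -1.66 and -2.20 in WT blood and at -2.57 to -0.66 with a median of -1.38 in KO-labelled blood. The ranges overlapped, and the difference of 0.42 ± 0.33 did not pass (adjusted p = 0.403). Mdm2, the ubiquitin ligase that degrades p53, differed by -0.28 ± 0.17 (adjusted p = 0.253), and Ccng1, cyclin G1, by -0.04 ± 0.18 (adjusted p = 0.902). Phlda3, an inhibitor of Akt, differed by 0.37 ± 0.15 (adjusted p = 0.0872), and the pore-forming apoptosis protein Bax by -0.10 ± 0.16 (adjusted p = 0.718). Trp53 itself, which encodes p53, was dim, well above background on 5 of 5 WT and 4 of 9 KO-labelled arrays, and differed by -0.39 ± 0.25 (adjusted p = 0.272). The signs for Ccng1 and Bax turned with the percentile over all probes (0.19 and 0.13).

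Of 32 p53 targets tested, 6 were lower and 0 higher, beside 18.3% and 4.43% of all genes, with a median difference of -0.25 and 8 of 32 differences above 0 (beside 41.9% of all genes). The mean over the list was lower in KO-labelled blood on all 5 slides, with differences of -0.63 to -0.16, while KO-labelled arrays (-3.86 to -3.04) overlapped WT arrays (-3.23 to -3.06). With the slide as a block, 11 were lower and 0 higher, beside 25.4% and 12.8% of all genes. Those that fell were Pmaip1, Xpc, Btg2, Ddit4, Ddb2 and Trp53inp1. Pmaip1, which encodes the BH3-only death protein Noxa, stood at -3.78, -4.14, -2.53, -2.45 and -2.36 in WT blood and at -5.35 to -4.08 with a median of -4.82 in KO-labelled blood, a 3.34-fold lower level (adjusted p = 0.000128). WT replicate 2 lay below the highest KO-labelled array. Without WT replicates 3 to 5 the Pmaip1 difference was -0.83 (adjusted p = 0.092), Xpc and Btg2 did not pass either, and 1 of the 32 targets was then lower. Btg2, an antiproliferative factor, fell by 1.13 ± 0.22 on the log2 scale (adjusted p = 0.000783), and Xpc, which recognises damage in nucleotide excision repair, fell by 1.16 ± 0.25 (adjusted p = 0.00204). After averaging of near-identical arrays, 1 of the 6 calls was kept (Pmaip1, adjusted p = 0.017). Among 23 DNA repair genes, 5 were lower and 0 higher, near the 18.3% lower and 4.43% higher of all genes. Their median was -0.21 and became 0.01 with the percentile over all probes. Atr, Xrcc5 and Mre11a, which act in damage signalling and in end joining or resection, fell by 1.35, 1.13 and 1.07, but these probes were dim: Xrcc5 and Mre11a were each well above background on 4 of 5 WT and 2 of 9 KO-labelled arrays. None of the 5 calls was kept after averaging of near-identical arrays, where 4 of the 23 genes had an unadjusted p under 0.05, and 4 genes were lower without WT replicates 3 to 5, Mre11a not among them.

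Neutrophil genes were lower in KO-labelled blood. Of 26 neutrophil markers tested, 17 fell and 1 rose, beside 18.3% and 4.43% of all genes, with a median difference of -1.74. The mean level of the list was -1.90, -1.88, -0.50, -0.54 and -0.52 on WT replicates 1 to 5 and ran from -2.89 to -1.70 with a median of -2.66 on the KO-labelled arrays. WT replicates 3 to 5 were the high arrays, and KO-labelled replicate 6 alone reached above WT replicates 1 and 2. In whole blood, fewer cells of a type and less RNA per cell cannot be told apart, here and for every marker list below. The lower level was on all 5 slides, from -0.76 to -2.37. Without WT replicates 3 to 5, the arrays with high hepatocyte transcripts, the median was -0.77. Against the 2 near-identical WT arrays left, 7 markers were lower and 0 higher, beside 6.67% and 0.697% of all genes. With near-identical arrays averaged, 12 were lower and 0 higher.

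S100a8, which forms the calprotectin complex with S100a9 and is among the most abundant neutrophil transcripts, stood at 3.21, 3.30, 4.96, 4.86 and 4.88 in WT blood and at 0.92 to 2.58 with a median of 1.06 in KO-labelled blood. No arrays overlapped, and KO-labelled replicate 6 was the high array of its group. S100a8 was 8.14-fold lower (difference -3.03 ± 0.33, adjusted p = 3.04e-06), and the difference was -2.04 without WT replicates 3 to 5 (adjusted p = 0.00341). Mmp9, a matrix-degrading protease of neutrophil granules, stood at -3.10, -3.07, -0.84, -0.80 and -0.71 in WT blood and at -5.40 to -4.08 in KO-labelled blood, 9.62-fold lower (adjusted p = 8.19e-06). These groups did not overlap either. Cxcr2, the chemokine receptor that draws neutrophils out of the marrow, varied more, from -4.85 to -0.98 with a median of -2.95 among the KO-labelled arrays against -0.54, -1.10, 1.24, 1.38 and 0.51 in WT blood. It was 10.1-fold lower (difference -3.33 ± 0.66, adjusted p = 0.000844), with WT replicate 2 and KO-labelled replicate 6 overlapping, and its adjusted p was 0.151 without WT replicates 3 to 5. The marker that rose was Camp, by 0.87, a granule peptide made by neutrophil precursors. Among the other markers, the stefin genes Stfa1 and Stfa2 fell by 2.92 and 2.82, and the maturation factor Cebpe by 1.80. Lcn2 and Hp, by -2.15 and -2.07, are also made by the liver in the acute phase.

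Inflammatory genes that blood myeloid cells express were lower as well. Il1b, which encodes the cytokine interleukin-1 beta, stood at -1.03, -0.95, 0.40, 0.48 and 0.66 in WT blood and at -3.80 to -1.50 with a median of -3.37 in KO-labelled blood. Every KO-labelled array lay below every WT array, with KO-labelled replicate 6 the nearest. Il1b was 8.66-fold lower (adjusted p = 8.19e-06) and kept its call without WT replicates 3 to 5 (difference -2.21, adjusted p = 0.0104). Of 14 inflammatory cytokine and NF-kB genes, 6 were lower and 0 higher, beside 18.3% and 4.43% of all genes, with a median of -0.57. Without WT replicates 3 to 5, 2 were lower (beside 6.67% of all genes), and with near-identical arrays averaged 1 (beside 4.35%). Cxcl10 and Il1rn passed in neither. Cxcl10, a chemokine for activated T cells, fell by 1.17 ± 0.34 (adjusted p = 0.0149), and was well above background on 5 of 5 WT and 3 of 9 KO-labelled arrays. Il1rn, which encodes the antagonist of the interleukin-1 receptor, was well above background on 3 of 5 WT and 0 of 9 KO-labelled arrays and was at least 1.17-fold lower (adjusted p = 0.0109). Such bounds set the mean of the brighter group against, on each array of the dimmer group, the higher of the probe's own signal and the lowest signal among probes well above background.

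Clic5, which encodes a chloride intracellular channel protein tied to the actin cytoskeleton, was lower on every KO-labelled array. It stood at -2.68, -2.82, -3.26, -3.21 and -2.95 in WT blood, with both WT sets at one level. In KO-labelled blood it ran from -9.02 to -6.54 with a median of -8.29 and was not well above background on any of the 9 arrays. It was at least 10.8-fold lower (adjusted p = 4.11e-08), and its fitted difference of -5.13 ± 0.38 rests on signals below background in KO-labelled blood. The adjusted p was 0.00426 with near-identical arrays averaged, 8.82e-05 without WT replicates 3 to 5 and 0.36 after normexp correction. At 0 Gy, Clic5 stood at -4.12 to -3.64 on the WT arrays and at -6.64 to -3.85 on the KO-labelled arrays, and its difference was -0.97 (adjusted p = 0.526). The fitted difference between the doses was -4.15 (adjusted p = 0.000504), with the same limit.

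The mean level of NK and cytotoxic genes was lower on every KO-labelled array than on any WT array. Of 19 tested, 14 fell and 0 rose, beside 18.3% and 4.43% of all genes, with a median difference of -1.06. The mean level of the list was -2.58, -2.47, -3.20, -3.26 and -3.22 on the WT arrays and -4.15 to -3.63 with a median of -3.78 on the KO-labelled arrays. WT replicates 1 and 2, which carried few hepatocyte transcripts, were here the high arrays, the reverse of the neutrophil list. Without WT replicates 3 to 5, 10 markers were lower and 0 higher, and the median was -1.43. Averaging of near-identical arrays left 5 lower and 0 higher. At 0 Gy the direction was the opposite, with list means of -3.70 to -3.58 on WT arrays and -3.30 to -2.83 on KO-labelled samples. The median difference was then 0.60, with 0 genes called by limma. Klrd1, the CD94 chain of inhibitory and activating NK receptors, stood at -2.73, -2.62, -3.66, -3.61 and -3.44 in WT blood and at -5.55 to -3.92 with a median of -4.81 in KO-labelled blood, without overlap. It was 2.73-fold lower (adjusted p = 0.000131). Gzma, a protease of cytotoxic granules, fell by 1.40 ± 0.47 (adjusted p = 0.0337), and KO-labelled replicate 5 stood at -3.44 while the highest KO-labelled array stood at 0.54. Its adjusted p was 0.0731 without WT replicates 3 to 5 and 0.221 with near-identical arrays averaged. Klrk1, the activating receptor NKG2D, fell by 1.36 ± 0.36 (adjusted p = 0.00864), was well above background on 2 of 9 KO-labelled arrays and passed in neither setting. The Klra4, Klra7 and Klra8 probes fell by 1.33, 1.30 and 1.06, but these Ly49 receptor genes are near copies of each other, and their probes may share transcripts.

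T cell genes fell in part. Of 25 T cell markers, 11 fell and 0 rose, beside 18.3% and 4.43% of all genes, with a median of -0.54. Without WT replicates 3 to 5 the counts were again 11 and 0, beside 6.67% and 0.697%, with a median of -0.86. Averaging of near-identical arrays left 4 lower. The list mean was -2.35, -2.34, -2.71, -2.87 and -2.90 on the WT arrays and -3.67 to -2.76 with a median of -3.14 on the KO-labelled arrays, which overlapped through KO-labelled replicates 3 and 6. Cd3g, a chain of the T cell receptor complex, stood at -0.43, -0.34, -1.48, -1.37 and -1.11 in WT blood and at -2.54 to -1.69 in KO-labelled blood, 2.35-fold lower (adjusted p = 9.73e-05). It followed the NK list in being highest on WT replicates 1 and 2. Satb1, a chromatin organiser of T cells, stood at -2.10 to -2.67 on the WT arrays and at -4.02 to -2.89 on the KO-labelled arrays, and fell by 1.09 ± 0.19 (adjusted p = 0.000293).

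Genes of T cell activation and autoimmunity, the process for which Gadd45a is known, were not higher in KO-labelled blood after 7 Gy. Of 14 tested, 7 were lower and 0 higher, beside 18.3% and 4.43% of all genes, with a median of -0.63. Without WT replicates 3 to 5, 7 were lower (beside 6.67% of all genes). Il2rb, a shared chain of the interleukin-2 and interleukin-15 receptors that NK cells also carry, stood at 1.25, 1.24, 0.58, 0.50 and 0.68 in WT blood and at -0.76 to 0.46 with a median of -0.20 in KO-labelled blood. The groups did not overlap, and Il2rb fell by 1.01 ± 0.22 (adjusted p = 0.00183). Il2ra, the high-affinity interleukin-2 receptor chain of regulatory and activated T cells, fell by 0.92 ± 0.27 (adjusted p = 0.0184), and KO-labelled replicate 6 at -3.09 lay among the WT arrays. Cd69, an early activation antigen, fell by 0.87 ± 0.28 (adjusted p = 0.0283, and 0.132 without WT replicates 3 to 5). None of these 7 calls was kept after averaging of near-identical arrays, where 4 of the 14 genes had an unadjusted p under 0.05. At 0 Gy the direction was the opposite. The list mean was then -3.89 to -3.69 on WT arrays and -3.47 to -3.26 on KO-labelled samples, replicates 1 and 4 counted as 1. The median difference was 0.44, with 0 genes called by limma.

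B cell genes and class II genes did not share this fall. Of 23 B cell markers, 1 was lower and 0 higher, beside 18.3% and 4.43% of all genes. Their median was 0.20, and it was -0.45 without WT replicates 3 to 5. With the slide as a block, 5 were higher and 2 lower, beside 12.8% and 25.4% of all genes. Cd72, an inhibitory B cell receptor, was the lower one: it stood at -3.57, -3.84, -4.42, -4.62 and -4.42 in WT blood and at -6.17 to -4.87 in KO-labelled blood, 2.40-fold lower without overlap (adjusted p = 0.000249). The mean over the B cell list was -5.97 to -4.93 on irradiated WT arrays and -6.27 to -4.64 on KO-labelled arrays, against -1.90 to -1.87 on unirradiated WT arrays, so both irradiated groups lay below the unirradiated WT arrays. Of 10 class II genes, 0 was called in either direction, with a median of 0.34, and 0 had an unadjusted p under 0.05 in limma.

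Monocyte and eosinophil lists held a few large decreases among members that did not pass. Of 23 monocyte and macrophage markers, 6 were lower and 0 higher, beside 18.3% and 4.43% of all genes, with a median of 0.16. Without WT replicates 3 to 5, and likewise after averaging of near-identical arrays, 3 were lower. Cx3cr1, the fractalkine receptor of patrolling monocytes, stood at -4.11, -4.08, -4.89, -5.66 and -5.16 in WT blood and at -7.80 to -5.64 with a median of -7.01 in KO-labelled blood. WT replicate 4 and KO-labelled replicate 7 met at the edge of the groups. Cx3cr1 was 4.28-fold lower (adjusted p = 0.000109), and was well above background on 5 of 5 WT and 2 of 9 KO-labelled arrays. Cd300e and Treml4, receptors of the same monocyte class, fell by 1.66 ± 0.32 and 1.39 ± 0.24 (adjusted p = 0.000731 and 0.000302), without overlap between the labels, and were likewise well above background on 2 of 9 KO-labelled arrays each. Of 9 eosinophil and basophil markers, 3 were lower and 0 higher, beside the same 18.3% and 4.43% of all genes. Their median was 0.37, with 6 of 9 differences above 0 (beside 41.9% of all genes). Without WT replicates 3 to 5, 2 were lower (beside 6.67% of all genes), and with near-identical arrays averaged 1 (beside 4.35%). Siglecf, the lectin that marks eosinophils, stood at -4.98, -5.35, -4.13, -3.96 and -3.72 in WT blood and at -8.37 to -6.32 in KO-labelled blood, 6.84-fold lower (adjusted p = 2.17e-06, and 0.00426 with near-identical arrays averaged). Ccr3, the eotaxin receptor of the same cells, fell by 0.86 ± 0.31 (adjusted p = 0.0486) and passed in neither of those settings.

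**Figure D3:**
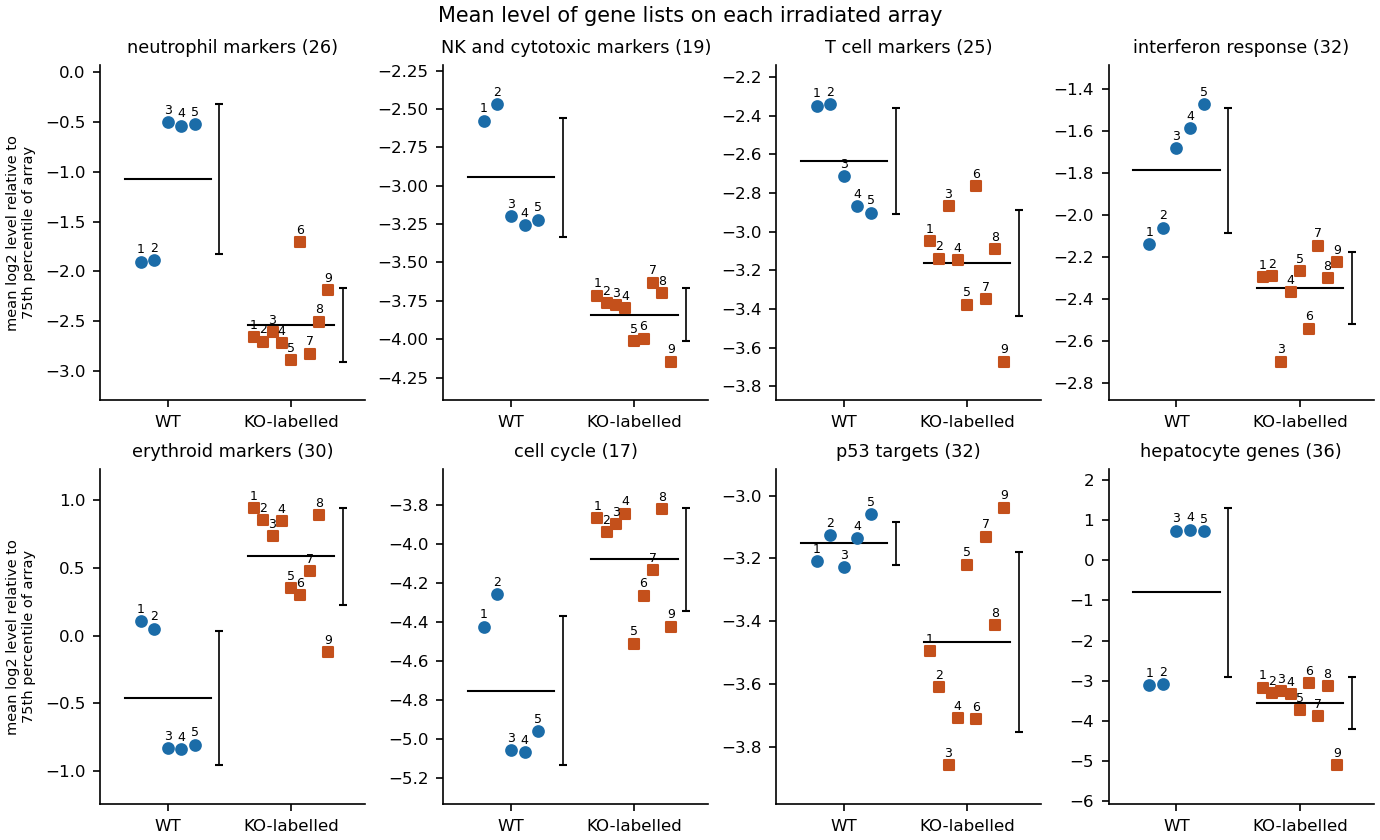
Mean level of 8 gene lists on each irradiated array (log2 scaled intensity), with the replicate number at each point and the number of genes in each title. Hepatocyte genes separate WT replicates 3 to 5 from all other arrays, NK genes separate the labels without overlap, and erythroid genes are lowest on WT replicates 3 to 5.

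Genes of the type I interferon response were lower in KO-labelled blood after 7 Gy. Of 32 tested, 14 fell and 1 rose, beside 18.3% and 4.43% of all genes, with a median of -0.64. The list mean was -2.14, -2.06, -1.68, -1.59 and -1.47 on the WT arrays and -2.70 to -2.15 with a median of -2.30 on the KO-labelled arrays. All KO-labelled arrays lay below all WT arrays, though the nearest differed by little, and WT replicates 3 to 5 were the high ones. Without WT replicates 3 to 5, 1 gene was lower, Ifit3, and 0 higher, and with near-identical arrays averaged 5 were lower and 0 higher. The hepatocyte genes were high on the same WT replicates 3 to 5, and their part in the result was not tested beyond these counts.

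Interferon acts on many of these genes through a complex that includes STAT2 and IRF9 and binds a repeat of GAAA in the promoter called the interferon-stimulated response element. Promoter windows of 300 bases (250 before the start and 50 after, RefSeq, GRCm38.p6) were available for 23 of the 32 genes and were searched on both strands for GAAA, 2 bases of any kind and GAAA again, which reads TTTC, 2 bases and TTTC on the other strand. The letters were found in 12 of 23 (52.2%), in 5 of 11 genes that fell, and in 3.99% of 27025 genes. The 250 bases before the start are shown for 4 genes that fell and hold the letters there, with the matches in capitals, to show the element in its place. The letters were not particular to the genes that fell: 6 of those 11 lack them, and 7 of the 12 other genes hold them.
Ifit3, chr19:34583279-34583528, plus strand: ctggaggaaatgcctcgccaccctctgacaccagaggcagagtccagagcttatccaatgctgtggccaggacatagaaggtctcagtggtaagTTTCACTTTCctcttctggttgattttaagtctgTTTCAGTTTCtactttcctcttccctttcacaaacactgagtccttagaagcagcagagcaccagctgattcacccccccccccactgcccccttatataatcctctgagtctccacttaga
Ifit1, chr19:34640639-34640888, plus strand: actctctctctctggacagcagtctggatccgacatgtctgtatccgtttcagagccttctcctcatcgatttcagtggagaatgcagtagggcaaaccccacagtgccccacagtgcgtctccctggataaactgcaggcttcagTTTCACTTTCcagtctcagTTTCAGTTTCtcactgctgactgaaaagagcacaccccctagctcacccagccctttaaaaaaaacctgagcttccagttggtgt
Trim30a, chr7:104465194-104465443, minus strand: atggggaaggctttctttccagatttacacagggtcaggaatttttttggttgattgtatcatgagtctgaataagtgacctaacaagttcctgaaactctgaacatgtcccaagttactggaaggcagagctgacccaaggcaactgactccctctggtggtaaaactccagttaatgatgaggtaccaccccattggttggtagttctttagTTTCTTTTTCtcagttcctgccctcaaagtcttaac
Stat2, chr10:128270248-128270497, plus strand: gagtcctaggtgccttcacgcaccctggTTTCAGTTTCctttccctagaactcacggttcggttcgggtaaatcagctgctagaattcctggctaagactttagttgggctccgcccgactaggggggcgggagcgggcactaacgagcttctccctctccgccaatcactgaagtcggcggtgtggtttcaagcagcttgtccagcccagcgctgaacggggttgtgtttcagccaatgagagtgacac
The matches lie 156 and 122 bases before the start in Ifit3, 104 and 85 in Ifit1, 36 in Trim30a and 222 in Stat2. A match describes the letters and is not a measured binding site.

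Ifit3, which encodes an antiviral protein that binds foreign RNA with its relative Ifit1, stood at -0.69, -0.35, 1.28, 1.004 and 1.28 in WT blood and at -1.90 to -0.998 with a median of -1.82 in KO-labelled blood. No arrays overlapped, and WT replicates 3 to 5 were the high arrays. Ifit3 was 4.61-fold lower (difference -2.21 ± 0.27, adjusted p = 8.19e-06), and its difference was -1.18 without WT replicates 3 to 5 (adjusted p = 0.00398). Ifit1 fell by 1.28 ± 0.45 (adjusted p = 0.0431), Trim30a by 1.35 and Stat2 by 0.84. Oasl1 and Oasl2, relatives of the oligoadenylate synthetases that sense viral RNA, fell by 1.86 ± 0.29 and 1.48 ± 0.30 (adjusted p = 9.50e-05 and 0.00122). For both, WT replicates 1 and 2 stood between -0.93 and -0.71 and WT replicates 3 to 5 between 0.71 and 0.94, and neither gene passed without WT replicates 3 to 5 (adjusted p = 0.073 and 0.405). The gene that rose was Isg15, a ubiquitin-like modifier, by 0.71.

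Genes of antigen presentation that interferon also induces moved in the same direction. Of 14 class I and immunoproteasome genes, 8 were lower and 0 higher, beside 18.3% and 4.43% of all genes. Their median was -0.62, with 0 of 14 differences above 0 (beside 41.9% of all genes). Tap2, a subunit of the peptide transporter into the endoplasmic reticulum, stood at -0.52, -0.24, -0.45, -0.63 and -0.15 in WT blood, with both WT sets at one level, and at -1.98 to -0.81 with a median of -1.63 in KO-labelled blood. It was 2.10-fold lower without overlap (adjusted p = 0.000275), and its difference was -1.09 without WT replicates 3 to 5 (adjusted p = 0.0212). Tap1, the partner subunit, fell by 1.10 ± 0.23 (adjusted p = 0.00148), and Nlrc5, the transactivator of class I genes, by 1.08 ± 0.29 (adjusted p = 0.01). After averaging of near-identical arrays 1 of the 8 calls was kept, Tap2 (adjusted p = 0.0424), and 2 of the 14 genes were lower without WT replicates 3 to 5, Tap1 not among them. Of 16 interferon-inducible GTPases, which attack the vacuoles of intracellular parasites, 5 were lower and 1 higher, beside 18.3% and 4.43% of all genes. With near-identical arrays averaged, 1 of them was lower and 0 higher (beside 4.35% and 0.786%). Without WT replicates 3 to 5, 4 of them were lower and 0 higher (beside 6.67% and 0.697%). Their median was -0.60, but 0.04 over probes above background on all arrays. Irgm1 stood at -1.76, -1.57, -1.23, -1.18 and -1.10 in WT blood and at -2.47 to -1.82 in KO-labelled blood, 1.72-fold lower without overlap (adjusted p = 0.000259). Gbp11 was 2.05-fold lower and Irgm2 2.13-fold lower (adjusted p = 0.000776 and 0.00164), and neither passed with near-identical arrays averaged. Irgm1 and Irgm2 did not pass without WT replicates 3 to 5 (adjusted p = 0.0971 and 0.298).

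Red cell genes were higher in KO-labelled blood. Of 30 erythroid markers tested, 19 rose and 0 fell, beside 4.43% and 18.3% of all genes. Their median was 1.27, and 27 of 30 differences were above 0 (beside 41.9% of all genes). The list mean was 0.11, 0.05, -0.83, -0.84 and -0.81 on the WT arrays and -0.12 to 0.94 with a median of 0.74 on the KO-labelled arrays. The groups overlapped through KO-labelled replicate 9, and WT replicates 3 to 5, the arrays with high hepatocyte transcripts, were the low ones. Without WT replicates 3 to 5, 1 marker was higher, Tspo2, and 0 lower, and with near-identical arrays averaged 11 were higher and 0 lower. The part of the liver transcripts in this result was not tested beyond these counts.

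Tspo2, a cholesterol-binding membrane protein of erythroblasts, kept its call with near-identical arrays averaged, without WT replicates 3 to 5 and after normexp correction. It stood at 0.11, 0.14, 1.07, 0.90 and 1.13 in WT blood and at 2.02 to 3.47 with a median of 3.26 in KO-labelled blood. It was 5.11-fold higher (difference 2.35 ± 0.23, adjusted p = 1.77e-06, and 8.82e-05 without WT replicates 3 to 5), with no overlap. Ank1, the ankyrin that anchors the red cell skeleton, was well above background on 0 of 5 WT and 9 of 9 KO-labelled arrays, with WT arrays at -8.67 to -7.01 and KO-labelled arrays at -6.60 to -4.29. It was at least 3.17-fold higher (adjusted p = 0.000972), and 0.113 was its adjusted p without WT replicates 3 to 5. Slc4a1, which encodes the band 3 anion exchanger, rose by 1.92 and differed by 0.83 without WT replicates 3 to 5 (adjusted p = 0.0912).

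**Figure D4:**
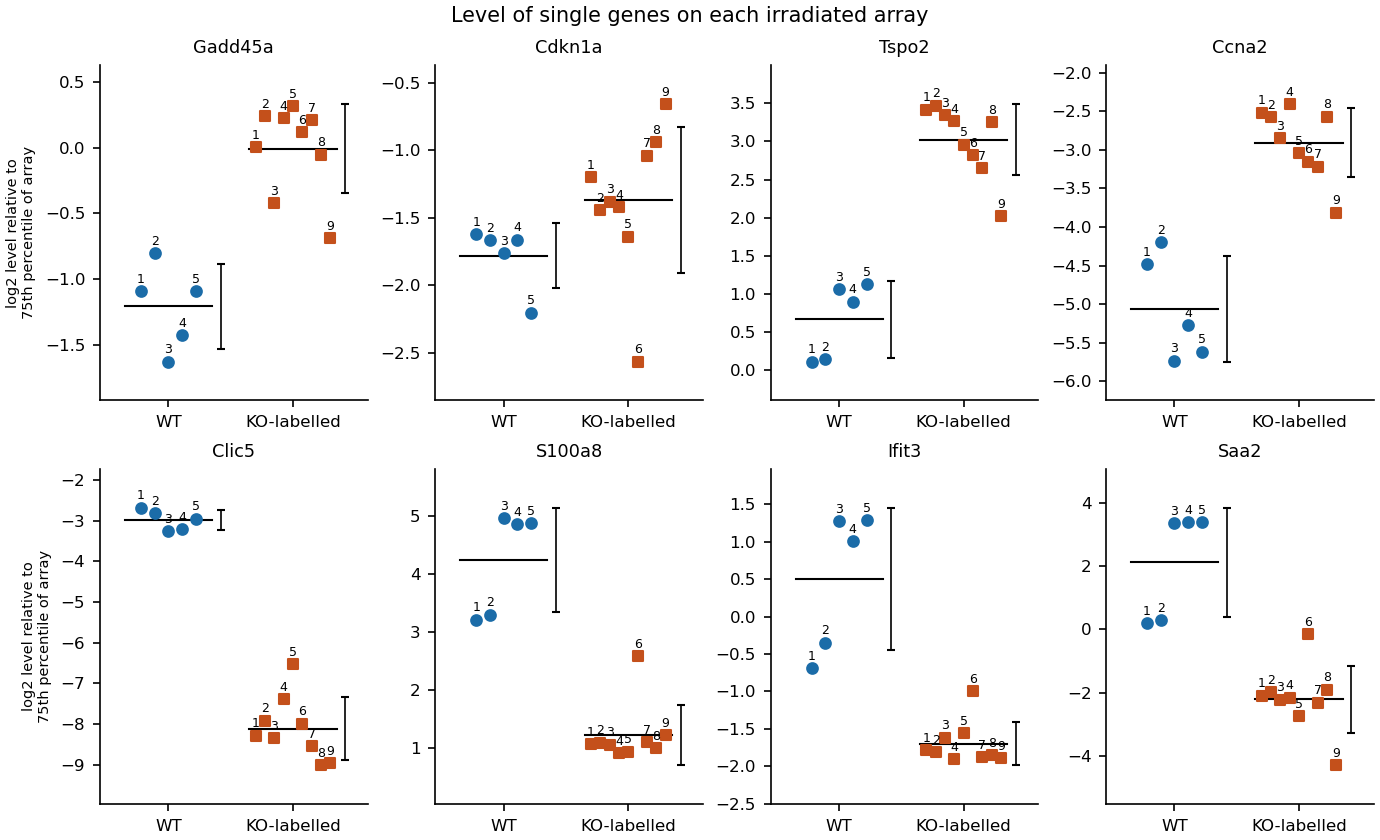
Level of 8 genes on each irradiated array (log2 scaled intensity), with the replicate number at each point. Gadd45a, Tspo2 and Ccna2 lie higher and Clic5, S100a8, Ifit3 and Saa2 lower on every KO-labelled array than on any WT array, and Cdkn1a overlaps.

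Cell division genes were also higher. Of 17 cell cycle genes tested, 7 rose and 0 fell, beside 4.43% and 18.3% of all genes. Their median was 0.70, and -0.02 after normexp correction. Without WT replicates 3 to 5, 2 were higher (beside 0.697% of all genes), Ccna2 and Mki67. With near-identical arrays averaged, 3 were higher. Ccna2, the cyclin of S phase and mitosis, stood at -4.48, -4.19, -5.73, -5.27 and -5.61 in WT blood and at -3.81 to -2.41 with a median of -2.85 in KO-labelled blood, without overlap. It was 4.45-fold higher (difference 2.15 ± 0.25, adjusted p = 5.21e-06, and 0.00512 without WT replicates 3 to 5). Mki67, the nuclear antigen of dividing cells, stood at -3.64, -3.42, -4.65, -5.18 and -4.68 in WT blood and at -3.23 to -2.24 in KO-labelled blood, 3.28-fold higher (adjusted p = 3.18e-05). At 0 Gy, Ccna2 stood at -2.24 to -1.86 on WT arrays and at -2.25 to -1.64 on KO-labelled arrays, so KO-labelled blood after 7 Gy lay nearer to the unirradiated level than WT blood did. Ccnb2, a mitotic cyclin, rose by 1.64 ± 0.48 (adjusted p = 0.0161), with KO-labelled replicate 5 at -6.22 and the others at -3.18 to -1.77, and passed in neither setting.

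The remaining genes named for a large increase were in no list above. They come from the 10 largest increases among called genes whose arrays did not overlap and that were well above background on every array of 1 label, so genes with larger but less complete differences are not among them. Cks1b, a subunit of cyclin-dependent kinases, stood at -5.56, -5.82, -5.76, -5.90 and -5.97 in WT blood and at -4.74 to -3.47 in KO-labelled blood, 3.60-fold higher (adjusted p = 2.03e-06). Both WT sets were at one level, and the difference was 1.74 without WT replicates 3 to 5 (adjusted p = 0.00156). Cul4a, the scaffold of a ubiquitin ligase that acts with Ddb1, stood at -4.37, -3.81, -4.30, -4.41 and -4.08 in WT blood and at -3.05 to -2.07 in KO-labelled blood, 3.58-fold higher (adjusted p = 3.94e-07). Asf1b, a histone chaperone of replicating cells, was 3.64-fold higher (adjusted p = 0.000544), with KO-labelled replicate 5 apart at -1.51 and the others at -5.06 to -3.54. Fam117a was 3.31-fold higher, and Specc1 and Rph3al, a Rab effector, were each 3.26-fold higher (adjusted p = 1.83e-05, 7.47e-06 and 2.91e-05). All 6 were without overlap between the labels, and Asf1b did not pass without WT replicates 3 to 5 (adjusted p = 0.0624) or with near-identical arrays averaged (0.0713).

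Platelet genes differed by small amounts, mostly upward. Of 25 tested, 3 were higher and 0 lower, beside 4.43% and 18.3% of all genes. The median was 0.38, and 24 of 25 differences were above 0, beside 41.9% of all genes. That median was 0.28 to 0.67 over 32 alternative settings, and at 0 Gy the median was -0.60. The list mean was 1.35, 1.45, 1.60, 1.68 and 1.74 on the WT arrays and 1.54 to 2.68 on the KO-labelled arrays. Treml1, a receptor of platelet granules, rose by 0.71 ± 0.22 (adjusted p = 0.0205), Vwf, the von Willebrand adhesion factor, by 0.63 ± 0.21 (adjusted p = 0.0313) and F5, coagulation factor V, by 0.42 ± 0.13 (adjusted p = 0.0205). KO-labelled replicate 6 was the high array for Treml1 and Vwf, at 5.64 and 4.43. None of the 3 calls was kept after averaging of near-identical arrays, where 2 of the 25 genes had an unadjusted p under 0.05. Treml1 and Vwf did not pass without WT replicates 3 to 5 either.

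Among called genes with a symbol that met the same rule, liver transcripts gave 9 of the 10 largest fitted decreases, and they rested on WT replicates 3 to 5. Of 36 hepatocyte genes, 28 were lower and 0 higher, with a median of -3.02. Of 13 acute phase genes, 10 were lower and 0 higher, with a median of -2.22. Both stand beside 18.3% lower and 4.43% higher of all genes. Within slides, the hepatocyte difference was -0.06 and -0.22 on slides 1 and 2 and -3.98, -4.09 and -4.45 on slides 3, 4 and 5. Without WT replicates 3 to 5, 0 of 36 and 0 of 13 were called by limma (1 of each list had an unadjusted p under 0.05), with medians of -0.54 and -0.45. Averaging of near-identical arrays left 9 and 5 lower. Saa2, serum amyloid A2, the acute phase protein that inflammation induces in the liver, stood at 0.19, 0.30, 3.35, 3.39 and 3.39 in WT blood and at -4.29 to -0.16 with a median of -2.15 in KO-labelled blood. All KO-labelled arrays lay below all WT arrays, and Saa2 fell by 4.32 ± 0.66 on the log2 scale (adjusted p = 7.66e-05), with a difference of -2.44 without WT replicates 3 to 5 (adjusted p = 0.0625). Cyp3a11 stood at -5.11, -5.34, -0.22, -0.35 and -0.37 in WT blood and at -8.47 to -5.09 in KO-labelled blood, a fitted 29.7-fold lower level, and was well above background on 2 of 9 KO-labelled arrays (adjusted p = 0.000404). Its adjusted p was 0.223 without WT replicates 3 to 5. WT replicates 1 and 2 met KO-labelled replicate 6.

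Genes that entered by size outside the hepatic lists were mostly liver-expressed too. Cyp2a4, a steroid hydroxylase, Akr1c6, a hydroxysteroid dehydrogenase, and Serpind1, heparin cofactor II, differed by -4.84, -4.63 and -4.29, all called. Ces3a, a carboxylesterase, Vtn, vitronectin, and Serpina1e, an alpha-1 antitrypsin, fell by 3.69, 3.38 and 3.24. The alpha-macroglobulin relatives Mug1 and Mug2 fell by 3.83 and 3.75. For all 8, the lowest of WT replicates 3 to 5 stood at least 3.04 above the higher of WT replicates 1 and 2, and without them none of the 8 passed (adjusted p from 0.105 to 0.682). Mug1 and Mug2, and Serpina1e and its neighbours, are near copies whose probes may share transcripts. Of the 10 largest decreases outside the hepatic lists, Clic5 and Mmp9 passed without those 3 WT arrays.

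Stress pathways tied to Gadd45a were mixed. Of 22 genes of the p38 and JNK cascades, 3 were higher and 6 lower, beside 4.43% and 18.3% of all genes. Mapk13, which encodes the delta isoform of p38, stood at -4.44, -4.32, -2.96, -2.90 and -2.99 in WT blood and at -6.37 to -4.63 in KO-labelled blood, 3.19-fold lower (adjusted p = 0.000259) without overlap. None of the 6 lower calls was kept without WT replicates 3 to 5, where 1 gene was higher, and averaging of near-identical arrays left 0 higher and 2 lower. Dusp1, a phosphatase that turns these kinases off, and Fos, an immediate-early factor, fell by 1.80 ± 0.35 and 1.52 ± 0.41 (adjusted p = 0.000731 and 0.0103), and neither passed without WT replicates 3 to 5 (differences -0.67 and -0.54). Of 13 DNA methylation and demethylation genes, 1 was higher and 5 lower, beside the same 4.43% and 18.3% of all genes. Without WT replicates 3 to 5, and likewise with near-identical arrays averaged, 1 was higher and 1 lower. Tet2, an enzyme that oxidises 5-methylcytosine, stood at -5.40, -5.56, -5.49, -5.40 and -5.03 in WT blood and at -8.42 to -6.03 in KO-labelled blood, 3.58-fold lower without overlap (adjusted p = 0.000553). It was well above background on 5 of 5 WT and 3 of 9 KO-labelled arrays. Mbd1, a methyl-CpG binding protein, was 2.63-fold lower (adjusted p = 0.013) and passed in neither setting. Uhrf1, which guides maintenance methylation in dividing cells, was well above background on 0 of 5 WT and 6 of 9 KO-labelled arrays and at least 2.39-fold higher (adjusted p = 0.000173), though its fitted difference was -0.06 after normexp correction.

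Metabolic and proteotoxic stress lists went both ways, and most of their calls were lost with near-identical arrays averaged. Their counts stand beside 4.43% higher and 18.3% lower of all genes. These shares were 0.786% and 4.35% with near-identical arrays averaged, and 0.697% and 6.67% without WT replicates 3 to 5. Lower calls in the ATF4, heat shock and oxidative phosphorylation lists were near or below the share of all genes, and higher calls above it. Of 20 oxidative stress genes, 5 were higher and 6 lower, against 1 and 0 with near-identical arrays averaged and 2 and 0 without WT replicates 3 to 5. Sod2, the mitochondrial superoxide dismutase, stood at -0.16, -0.12, -0.61, -0.61 and -0.33 in WT blood and at 0.49 to 1.16 with a median of 1.02 in KO-labelled blood, 2.41-fold higher without overlap (adjusted p = 1.62e-05, and 0.0114 without WT replicates 3 to 5). Nqo1, a quinone reductase, was 1.96-fold higher (adjusted p = 0.0029) and passed in neither setting. Gstm1, a glutathione transferase abundant in liver, fell by 2.02 ± 0.52 (adjusted p = 0.00729) and differed by 0.22 without WT replicates 3 to 5. Of 17 targets of the amino acid stress factor ATF4, 2 were higher and 4 lower, against 1 and 3 with near-identical arrays averaged and 1 and 1 without WT replicates 3 to 5. Chac1 and Trib3 fell by 2.77 ± 0.56 and 1.58 ± 0.27, and Slc7a5, a subunit of an amino acid transporter, rose by 1.47 ± 0.25 (adjusted p = 0.00111, 0.000252 and 0.000236). Chac1 and Trib3 did not pass without WT replicates 3 to 5, nor Slc7a5 with near-identical arrays averaged. Of 15 heat shock genes, 3 were higher, Hsph1, Hsp90ab1 and Hsp90aa1, by 0.90, 0.52 and 0.52, and 3 were lower. In limma, 0 of the 15 were called with near-identical arrays averaged (2 at an unadjusted p under 0.05) and 1, Hsph1, without WT replicates 3 to 5. Of 31 oxidative phosphorylation genes, 4 were higher and 4 lower, with Atp5b, a subunit of the ATP synthase, rising by 1.26 ± 0.22 (adjusted p = 0.000263), Cox6c by 0.99, and Cyc1 falling by 0.66. Averaging of near-identical arrays left 1 of these calls, Atp5b, and without WT replicates 3 to 5 limma called 0 of 31 (1 at an unadjusted p under 0.05). Of 29 ribosomal protein genes, 1 was higher, Rplp0, by 0.72 ± 0.24 (adjusted p = 0.0314), and 0 lower. Averaging left 0 called (0 at an unadjusted p under 0.05), and without WT replicates 3 to 5, 0 were higher and 3 lower. Hsp90aa1 turned sign in the authors' value table (-0.15).

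The labels were also compared without irradiation. At 0 Gy, 46 genes (0.291%) were called, 33 higher and 13 lower, and 18 of them were called at 7 Gy too, 12 in the same direction and 6 in the opposite one. The difference between the doses passed for 2486 genes (15.8%). Tspo2 was among those called in the same direction at both doses: at 0 Gy it stood at 0.22 to 0.62 on WT arrays and at 2.07 to 2.89 on KO-labelled arrays, a difference of 2.18 (adjusted p = 0.000562), and the doses did not differ by test (adjusted p = 0.77). Specc1 and Rph3al followed it, with differences of 1.25 and 1.60 at 0 Gy. Ifit3 went from 1.20 higher at 0 Gy (adjusted p = 0.147) to 2.21 lower at 7 Gy, and the doses differed (adjusted p = 0.00019). In WT blood Ifit3 stood at -5.21 to -5.01 at 0 Gy and at -0.69 to 1.28 at 7 Gy, and in KO-labelled blood at -4.36 to -3.67 and at -1.90 to -0.998. The comparisons at both doses use separate arrays, but the interaction shares arrays with each of them.

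Of the 6 genes called in opposite directions, 5 were higher in KO-labelled blood at 0 Gy and lower at 7 Gy: Irgm1, Ifi209, Xaf1, Cmpk2 and Serpina3f. Irgm1, Ifi209, Xaf1 and Cmpk2 are interferon-induced genes. Irgm1 differed by 0.84 at 0 Gy and by -0.78 at 7 Gy, with KO-labelled arrays at -2.46 to -2.24 and at -2.47 to -1.82. Its WT arrays went from between -3.30 and -3.17 to between -1.76 and -1.10. Xaf1 differed by 1.05 and -0.67, Ifi209 by 0.76 and -0.49, Cmpk2 by 1.24 and -0.58, and Serpina3f, a serine protease inhibitor, by 1.90 and -0.77. The reverse was Cdc42ep5, an effector of the GTPase Cdc42, with -0.98 at 0 Gy and 0.60 at 7 Gy. All 6 passed the test between the doses, an outcome that calls in opposite directions largely fix in advance. With near-identical arrays averaged, Irgm1 kept its call at 7 Gy (adjusted p = 0.0458) and the other 5 did not. At 7 Gy, Irgm1, Xaf1, Cmpk2 and Cdc42ep5 did not pass without WT replicates 3 to 5 (differences -0.48, -0.51, 0.10 and 0.66, adjusted p = 0.0971, 0.137, 0.84 and 0.103). With near-identical arrays averaged, limma called 0 genes at 0 Gy and 0 between the doses, with 363 and 2154 genes at an unadjusted p under 0.05.

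**Figure D5:**
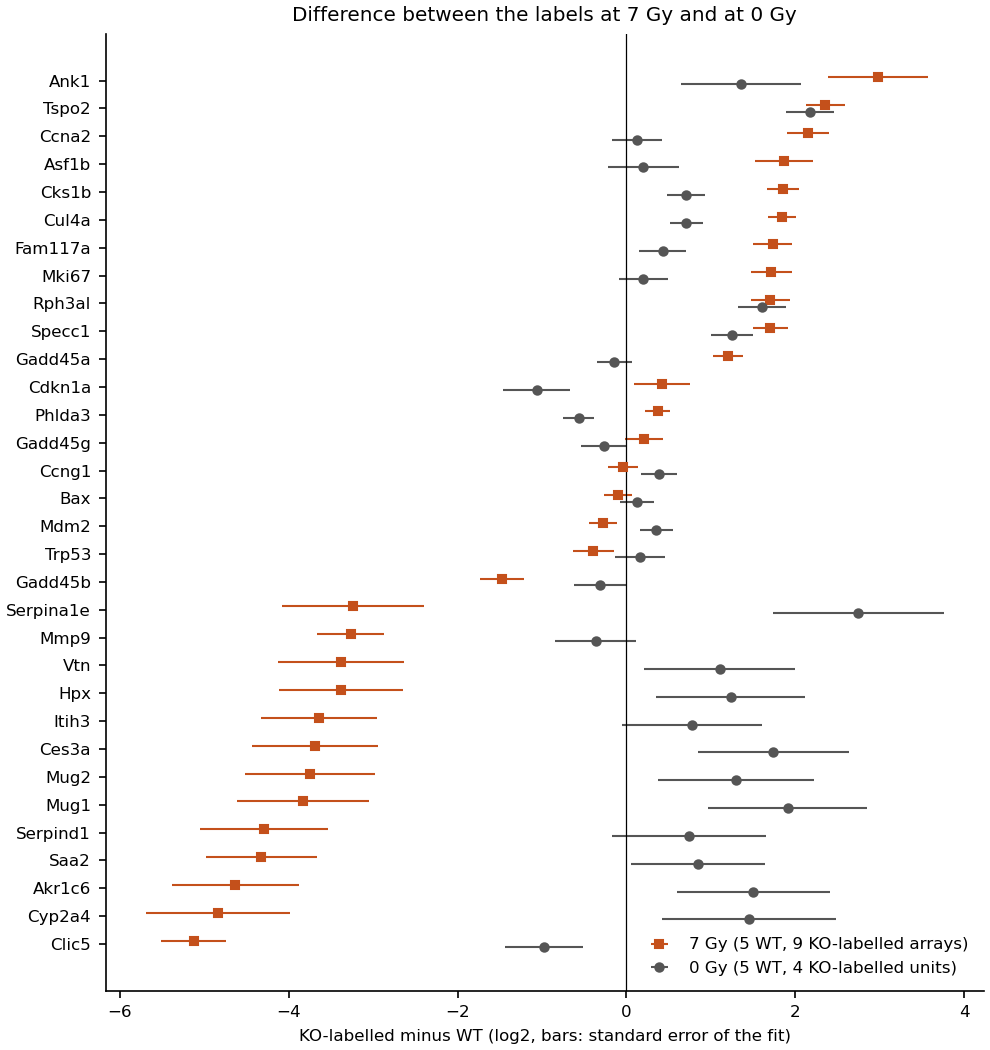
Difference between KO-labelled and WT blood (log2, bars are the standard error of the fit) at 7 Gy and at 0 Gy for the genes always described and the genes named by size. Tspo2, Rph3al and Specc1 lie at similar values at both doses, while Clic5 and the liver-expressed genes lie far below 0 at 7 Gy alone.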

How the data were processed

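RNA from 24 blood samples was measured on 1-colour Agilent mouse arrays. The authors deposited scanner output from Agilent Feature Extraction 12.0.2 (per the submitters' processing notes), whose processed intensity values had spatial and multiplicative detrending switched on and local background correction off, per the file headers. The log2 value table that the authors deposited beside it (12900 rows, 37 of them controls, 12863 matched to probes) equals log2 of the processed signal plus an offset of 0 to 1.54 per array. Its column medians were 5.82, 6.10, 6.10, 6.52, 7.18, 6.37, 6.20, 5.81 and 6.23 for KO-labelled replicates 1 to 9 and 5.87, 5.93, 6.30, 6.22 and 6.12 for WT replicates 1 to 5 at 7 Gy. The source of the offset is not given in the sources used here. Probe coordinates are those of the scanner files, mm9. The dye field names another dye than Cy3 for 5 of 5 irradiated and 1 of 5 unirradiated WT arrays, and every array was read in the green channel.

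Processed signals were log2 transformed, averaged over the spots of a probe without outlier spots and scaled to the 75th percentile over 7851 probes well above background on all arrays. The filter passed 19647 probes, those above background by the scanner's flag on 5 or more arrays, and the brightest probe stood for a gene (15784 genes). Names came by accession for 28657 probes, by symbol for 3306, by older symbol for 160 and from the file for 7306. limma 3.58.1 (R 4.3.3) was fitted over the 4 groups with Benjamini-Hochberg adjustment at 0.05. KO-labelled replicates 1 and 4 at 0 Gy differed by no more than repeat spots and were counted as 1 sample. Tables and figures used Python 3.11.15, pandas 2.3.3, NumPy 2.4.6 and matplotlib 3.10.9. Tested on simulated data for the 7 Gy comparison over 15784 genes, the fit recovered 45% of changes of 1 log2 unit and 88% of changes of 2, with 4.32% false among its calls. The simulated arrays were independent of each other, unlike the sets of similar arrays here, so these rates do not hold for the measured arrays.

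Named genes were Gadd45a, Gadd45b, Gadd45g, Cdkn1a, Mdm2, Ccng1, Phlda3, Bax and Trp53. To these were added the 10 called genes with the largest rise and the 10 with the largest fall, if no KO-labelled array overlapped WT and every array of 1 group was well above background, the 10 with the largest fall outside the hepatic lists, and up to 3 called members of each list. Some genes that this rule names are not reported here. The members and gene lists were chosen with earlier results of these data known. Replicates 1 to 5 share numbers and slides across labels. Same-numbered irradiated arrays deviated together with correlations of 0.25, 0.21, 0.47, -0.17 and 0.31. Between arrays of different numbers the correlations were -0.39 to 0.17. The main fit did not take the numbers or slides as pairs, and both were used as blocks in alternatives. Alternatives were other scalings, normexp (offset 50), filters, the authors' table, slide and replicate blocks, and leaving out or averaging arrays.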

Additional observations from a re-analysis of the deposited data

Results flagged for a closer look

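In 192 groups of arrays checked, 2 per named gene, 20 held an array whose gap to the nearest other array was large for the range of its group. Of these, 19 are described. The rule is set to flag about 1 in 20 groups of independent, normally spread arrays. The arrays here form sets of similar arrays, so the count cannot be read against that rate. KO-labelled replicate 6 was that array for S100a8 (2.58), Il1b (-1.50), Ifit3 (-0.998), Oasl1 (-0.63), Il2ra (-3.09), Treml1 (5.64), Vwf (4.43) and Hsp90ab1 (1.33). KO-labelled replicate 9 was the low array for Specc1 (-0.67), Ces3a (-7.85), Vtn (-6.97) and Serpina1e (-2.33). KO-labelled replicate 5 stood alone for Asf1b (-1.51), Ccnb2 (-6.22) and Gzma (-3.44), and KO-labelled replicate 3 for Phlda3 (0.021), Nlrc5 (-4.31) and Mbd1 (-3.10). In WT blood, Cdkn1a on replicate 5 (-2.20) was the only such value.

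The difference between KO-labelled and WT blood was not the same at 7 Gy as at 0 Gy for 63 of 96 named genes by limma's interaction term. Among the 32 genes named always or by size, 21 passed. Over all genes the term passed for 15.8%. Most named genes were chosen by their 7 Gy difference, which is part of the term, so their counts cannot be read against that share. The interaction, as the log2 difference at 7 Gy minus that at 0 Gy, was 1.35 for Gadd45a and 0.93 for Phlda3. Among genes with a large increase it was 2.02 for Ccna2, 1.67 for Asf1b, 1.52 for Mki67, 1.30 for Fam117a, 1.15 for Cks1b and 1.13 for Cul4a. It was -2.90 for Mmp9. The fitted value of -4.15 for Clic5 is no measured size, because Clic5 was not well above background on any irradiated KO-labelled array. Liver-expressed genes gave the lowest values: -6.29 for Cyp2a4, -6.13 for Akr1c6, -5.99 for Serpina1e, -5.74 for Mug1, -5.43 for Ces3a and -5.17 for Saa2. Mug2 and Serpind1 stood at -5.04 each, Hpx at -4.61, Vtn at -4.48 and Itih3 at -4.42. With near-identical arrays averaged, limma called 0 interactions, with 2154 genes at an unadjusted p under 0.05.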

How the results depend on the processing

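Against 700 higher and 2884 lower genes, the percentile over all probes gave 1348 and 1456, median scaling 1116 higher, quantile normalization 1711 lower, normexp correction 95 and 133, and probes above background on all arrays 1429 lower. No filter gave 459 higher, the slide as a block 2015 higher, near-identical arrays averaged 124 and 686, similar arrays averaged 0 and 1, and omission of WT replicates 3 to 5 gave 110 and 1053. Without KO-labelled replicates 6 to 9, 1308 were higher, and without replicates 1 to 4 and 8, 1342 were lower. Leaving out single replicates gave 482 (without WT replicate 4) to 954 (without KO-labelled replicate 9) higher and 2243 (without WT replicate 5) to 3695 (without KO-labelled replicate 9) lower. At 0 Gy the 46 calls became 19 with the percentile over all probes, 1 after normexp, 10 without a filter, 104 with the slide as a block, 0 with near-identical or similar arrays averaged (363 and 11 at an unadjusted p under 0.05), 74 without irradiated WT replicates 1 and 2, 89 without irradiated KO-labelled replicates 6 to 9, and 38 to 68 in leave-one-out fits. The 2486 interaction calls became 1471 with the percentile over all probes, 1094 under quantile normalization, 0 after normexp (900 at an unadjusted p under 0.05), 1039 without a filter, 5159 with the slide as a block, 1432 without arrays with noisy repeat spots, 1038 without WT replicates 3 to 5, 0 with near-identical or similar arrays averaged, 4257 without KO-labelled replicates 6 to 9, 1253 without replicates 1 to 4 and 8, and 1817 to 3643 in leave-one-out fits. The replicate number as a block gave 2375 higher and 4456 lower at 7 Gy, 295 calls at 0 Gy and 6244 interactions. Replicates 1 to 5 of each group lie on the slide of the same number, while KO-labelled replicates 6 to 9 each formed a block alone. Signs turned for Gadd45g (-0.053 without WT replicates 1 and 2), Mdm2 (0.048 without KO-labelled replicates 1 to 4 and 8), Uhrf1 (-0.055 after normexp), Gstm1 (0.22 without WT replicates 3 to 5) and Hsp90aa1 (-0.15 in the authors' table). Ccng1 turned to 0.19 with the percentile over all probes, 0.11 under median scaling, 0.14 under quantile normalization, 0.034 after normexp, 0.076 and 0.067 with near-identical and similar arrays averaged, 0.046 without WT replicate 2, 0.0038 without KO-labelled replicate 8, 0.053 without WT replicates 1 and 2, and 0.26 without KO-labelled replicates 1 to 4 and 8. Bax turned to 0.13, 0.047, 0.021, 0.16 and 0.015 with the percentile over all probes, under median scaling, and without WT replicate 2, WT replicates 1 and 2, and KO-labelled replicates 1 to 4 and 8. Leaving out single replicates gave -0.11 (without WT replicate 3) to 0.046 for Ccng1 and -0.19 (without WT replicate 4) to 0.021 for Bax. Of 89 called named genes, 53 kept the call with near-identical arrays averaged, 37 without WT replicates 3 to 5, 18 after normexp, 82 with the percentile over all probes and 81 to 88 in leave-one-out fits. The cause of these changes was not tested. Dim probes limit what their differences show.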

Other observations

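The genes in this section were chosen after their values were seen. Npy, which encodes neuropeptide Y, stood at 2.44, 2.20, 2.39, 2.39, 1.52, -8.23, 1.79, 2.63 and -7.80 on KO-labelled replicates 1 to 9 and at -8.98 to -7.37 on the WT arrays. It was well above background on 7 of 9 KO-labelled and 0 of 5 WT arrays, and KO-labelled replicates 6 and 9 lay with the WT arrays. Npy was called higher in KO-labelled blood (limma adjusted p = 0.00211), but not with near-identical arrays averaged (0.157) or without WT replicates 3 to 5 (0.0637), and no fold is given because the KO-labelled mean lies between those sets. At 0 Gy it stood at 0.86, -0.11, 0.61, 0.87 and -9.44 on KO-labelled replicates 1 to 5 and at -9.46 to -8.42 on WT arrays. At both doses the KO-labelled arrays fell into a high and a low set. Unc5cl, whose probe lies 20078 bases from that of Tspo2 on chromosome 17 of mm9, rose by 2.61 at 7 Gy and by 2.55 at 0 Gy (adjusted p = 7.81e-05 and 0.0208).

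Ptprc, which encodes the leukocyte antigen CD45, stood at -1.69, -1.64, -1.19, -1.06 and -1.09 in irradiated WT blood and at -3.53 to -2.71 in irradiated KO-labelled blood, without overlap. Its difference was -1.71 ± 0.17 (adjusted p = 2.03e-06), -1.38 without WT replicates 3 to 5 (adjusted p = 0.00212) and 0.04 at 0 Gy. Several genes that myeloid cells express, though not all of them alone, also lay lower on all 9 KO-labelled arrays. They were picked with that direction known. Of 23 monocyte and macrophage markers, 13 differences were above 0 and 10 below, with a median of 0.16. Slfn4 fell by 3.14, Clec7a, the receptor dectin-1, by 2.59, Fgl2 by 2.58 and Cxcr4, the receptor that holds cells in the marrow, by 2.53, and all 4 passed without WT replicates 3 to 5. Higher on all 9 were Bcl2l1, a survival gene of late red cell precursors, by 1.29, Mpp1, a red cell membrane protein, by 1.67, and St3gal5, a ganglioside synthase, by 1.33. Cdca3, a mitotic gene, was at least 2.42-fold higher and Car6, a carbonic anhydrase, at least 3.41-fold higher, each well above background on 0 of 5 WT and 6 of 9 KO-labelled arrays. Car6 did not pass with near-identical arrays averaged (adjusted p = 0.0663).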
